A study of Mus musculus with 8 samples.

Results

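The BCL2 family sets the threshold at which a cell commits to mitochondrial apoptosis, and 10 of its genes were followed here among the 27998 genes of a single-cell table from mouse tumor-infiltrating leukocytes. They were taken by gene symbol: the pro-survival genes Bcl2, Bcl2l1 (BCL-XL), Mcl1, Bcl2a1b and Bcl2a1d, the effectors Bax and Bak1, and the BH3-only genes Bcl2l11 (BIM), Bbc3 (PUMA) and Pmaip1 (NOXA). CD45+ cells were sorted from B16-OVA melanomas of C57BL/6 mice, and 5′ single-cell RNA-seq gave 8 libraries, each the only library of its condition. In all but the non-treated mice, adoptive cell transfer (ACT) used OT1 cells, which are CD8+ T cells with a transgenic receptor for an ovalbumin peptide. Untransduced OT1 cells were sampled on days 5 and 12. OT1 cells secreting a PD-1 decoy (PD1d) and an IL-2 variant (PD1d/IL-2v) were sampled on day 12, as were OT1 cells secreting the decoy and IL-33 (PD1d/IL-33). The combination of both products, PD1d/IL-2v/IL-33, was sampled on days 5, 12 and 26, and non-treated tumors on day 5. The tumors of several mice were pooled per condition according to the study's methods, so spread between mice was not measured, and transferred and host CD8+ T cells were not separated.

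As background, pro-survival members hold BAX and BAK1 in check at the outer mitochondrial membrane, and BH3-only members relieve that restraint by occupying the pro-survival proteins. Cytokine receptors that use the common gamma chain, among them those for IL-2, IL-7 and IL-15, support Bcl2 in T and NK cells. BIM removes activated T cells when a response contracts, MCL1 is short-lived and needed by lymphocytes and neutrophils, and the A1 proteins encoded by the Bcl2a1 genes are NF-kB targets induced by antigen receptors. RNA is read here, whereas several members, MCL1 and BIM above all, are also regulated as proteins.

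In all barcodes together the 10 genes held between 1904 UMIs (Bbc3) and 20542 UMIs (Bcl2), a UMI being 1 counted RNA molecule. Mcl1 held 20525 UMIs, Bax 18156, Bcl2l11 16176, Bcl2a1b 13050, Bcl2a1d 10225, Bak1 7597, Pmaip1 6682 and Bcl2l1 3685. On GRCm38, Bcl2 (ENSMUSG00000057329) spans chr1:106538176-106714290 on the minus strand, Mcl1 chr3:95656944-95663179 on the plus strand and Bcl2l11 chr2:128126038-128162547 on the plus strand. All 10 passed the filter on low counts in every comparison tested below.

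Bcl2a1b and Bcl2a1d are near-identical copies on chromosome 9, at chr9:89199273-89207838 on the plus strand and chr9:88723288-88731850 on the minus strand. Their coding sequences of 519 bases differed at 6 positions (98.8% identity). Windows as long as the sequenced cDNA read, 91 bases, were compared between the copies over the whole transcripts. Of these windows, 64.9% in Bcl2a1d and 35.5% in Bcl2a1b also occurred in another Bcl2a1 copy. A read from such a window does not tell the copies apart. How far this affects the UMIs assigned to either gene, and the share of each copy, was not tested. The RefSeq promoter windows are shown because the levels of the 2 genes ran together over libraries and cell types (Pearson correlation 0.95 over 34 sums). Each is the 250 bases upstream of the start, 5′ to 3′ on the gene's strand, GRCm38.p6, with capitals for the bases that differ where the windows overlap (2 substitutions and a gap of 6 bases among 198 matching positions).
Bcl2a1b (chr9:89199023-89199272, plus strand): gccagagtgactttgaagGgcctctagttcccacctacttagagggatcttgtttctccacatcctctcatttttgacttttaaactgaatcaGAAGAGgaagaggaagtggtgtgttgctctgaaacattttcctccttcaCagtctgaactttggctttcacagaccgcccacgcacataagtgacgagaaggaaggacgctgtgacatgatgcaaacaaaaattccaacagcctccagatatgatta
Bcl2a1d (chr9:88731851-88732100, minus strand): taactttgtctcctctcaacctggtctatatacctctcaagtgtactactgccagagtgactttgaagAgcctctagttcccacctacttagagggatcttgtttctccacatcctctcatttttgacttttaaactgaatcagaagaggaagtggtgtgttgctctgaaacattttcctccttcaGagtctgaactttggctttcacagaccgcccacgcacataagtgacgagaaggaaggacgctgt

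The BH3-only genes Bcl2l11 and Bbc3 are known targets of FOXO transcription factors, which bind GTAAACA. Both strands were searched for these letters in 14 RefSeq promoter windows of 9 members, and 2 windows held them, 1 of Bcl2l11 and 1 of Bbc3. Among all 32851 mouse promoter windows of that length, 3.17% held them, so a match is a description and not a bound site. The windows are printed because both genes were lower in cycling CD8+ T cells, as given below. Bcl2 and Mcl1 were lower there too, and their windows held no match. A link between the match and cycling was not tested. Matched letters are in capitals (in Bbc3 the match lies on the opposite strand).
Bcl2l11 (chr2:128125788-128126037, plus strand): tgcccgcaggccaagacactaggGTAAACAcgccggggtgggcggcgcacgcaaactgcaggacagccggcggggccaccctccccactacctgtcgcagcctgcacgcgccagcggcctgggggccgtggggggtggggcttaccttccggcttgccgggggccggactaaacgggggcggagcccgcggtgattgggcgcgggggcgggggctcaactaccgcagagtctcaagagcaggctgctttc
Bbc3 (chr7:16310011-16310260, plus strand): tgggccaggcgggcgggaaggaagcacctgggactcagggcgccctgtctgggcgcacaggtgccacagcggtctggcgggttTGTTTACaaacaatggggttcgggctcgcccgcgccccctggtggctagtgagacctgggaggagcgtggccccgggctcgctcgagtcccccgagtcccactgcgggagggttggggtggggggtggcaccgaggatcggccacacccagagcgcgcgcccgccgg
An NF-kB consensus was found in 3 of the 14 windows (1 each of Bcl2l1, Mcl1 and Bbc3) and in 1.41% of all windows. Neither Bcl2a1 window held them.

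Cells were gated by raw marker UMIs. Of 15700 barcodes 12821 passed the cell filter, and the gates held 5044 CD8+ T cells, 790 CD4+ T cells without a Foxp3 UMI, 408 CD4+ T cells with at least 1 Foxp3 UMI (Foxp3+ cells below), 2408 NK cells and 1347 myeloid cells. UMIs were summed per library and gate, and levels are CPM, a gene's UMIs per 1000000 UMIs of the sum. Sums of at least 20 cells entered the tests, which left 8 libraries for CD8+ T and NK cells, 7 for myeloid cells, 6 for CD4+ T cells without Foxp3 and 5 for Foxp3+ cells. CD8+ T-cell sums ranged from 275449 UMIs in 42 cells (untransduced, day 12) to 14832891 UMIs in 2279 cells (PD1d/IL-2v/IL-33, day 26). Markers not used by the gates separated them. A T-cell list had a median of 1577 CPM in CD8+ T cells against 9.73 in myeloid cells, an NK list 1631 in NK cells against 165 in CD8+ T cells, and a regulatory T-cell list 5005 in Foxp3+ cells against 1267 in the other CD4+ T cells. The 4 genes of the T-cell list together had a median of 913 CPM in the NK gate. Lck, Cd2, Cd247 and Lat had medians of 390, 287, 124 and 69.9 CPM there, against 581, 336, 190 and 465 in CD8+ T cells. Myeloid markers reached 6408 CPM in myeloid cells and medians between 366 and 990 CPM in the lymphoid gates, B-cell, plasmacytoid dendritic, melanoma, fibroblast and erythroid lists had medians of at most 9.98 CPM in every gate, and 143 barcodes occurred in more than 1 library.

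Bcl2 showed the largest difference of any member between lymphocyte gates among the contrasts tested. NK cells had the most, with a lowest library of 317 CPM, a median of 407 and a highest of 542. CD8+ T cells followed with 158, 175 and 277 CPM, and CD4+ T cells without Foxp3 had 43.5, 99.1 and 130 CPM. Neither the NK and CD8+ T-cell ranges nor the CD8+ and CD4+ T-cell ranges overlapped. Foxp3+ cells had the least, with 14.6 CPM in the untransduced day-5 library, 19.99 in PD1d/IL-2v, and 28.5, 15.0 and 5.11 in PD1d/IL-2v/IL-33 on days 5, 12 and 26. Those 5 values rest on 8, 19, 9, 3 and 4 UMIs. Myeloid cells were similarly low, at 13.4, 31.8 and 36.1 CPM.

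**Figure D1:**
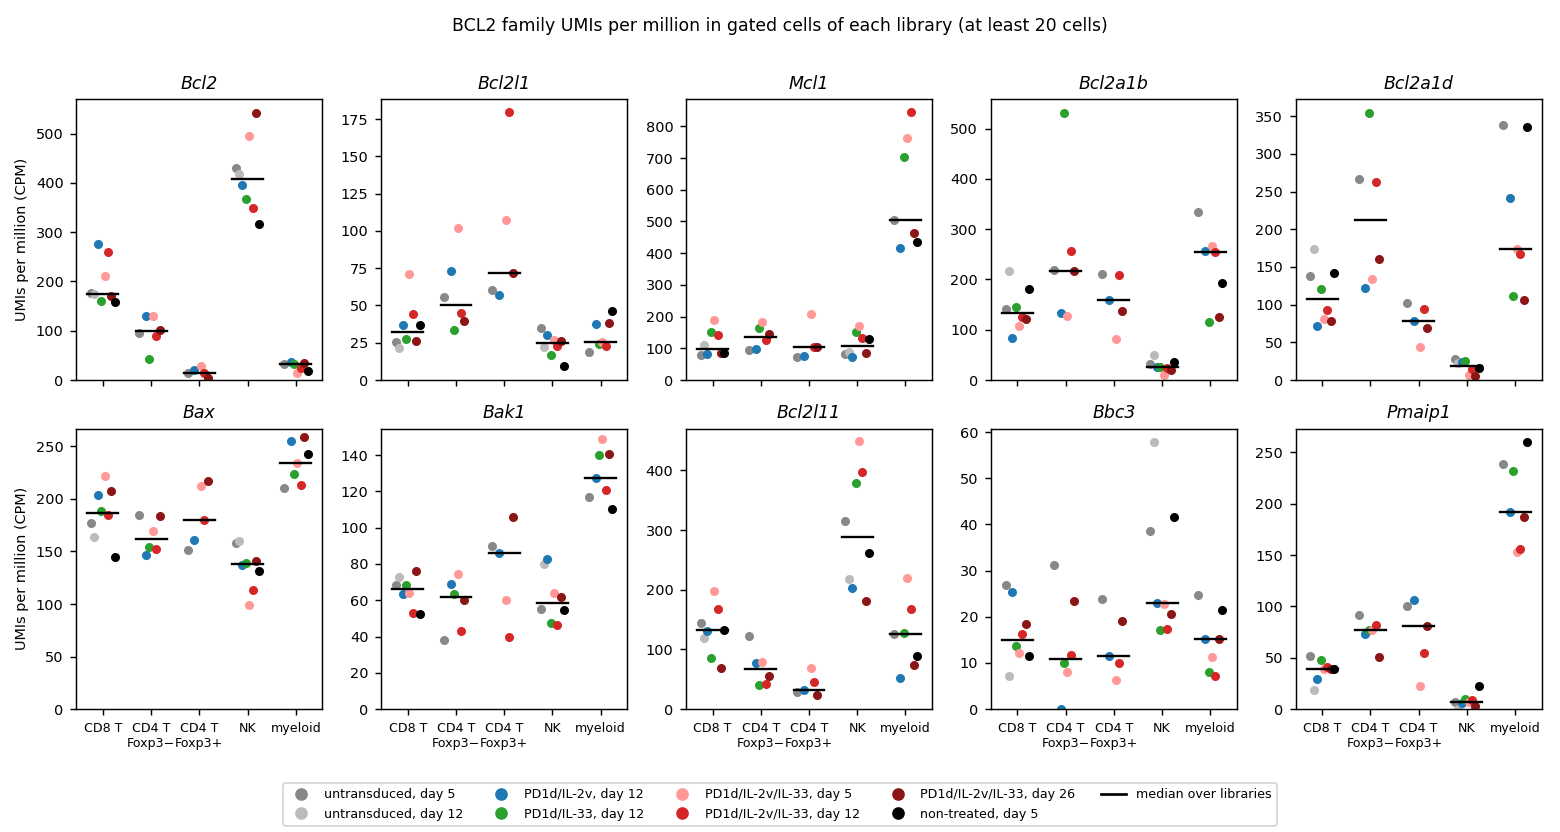
Level of each BCL2 family gene (CPM, linear axis) in the 5 gated cell types, with 1 point per library and a bar at the median. Bcl2 falls from NK (median 407) over CD8+ T (175) and CD4+ T (99.1) to Foxp3+ cells (15.0), and Mcl1 is highest in myeloid cells (503).

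These differences were tested with edgeR's quasi-likelihood test on the summed counts, with the library as a block and Benjamini-Hochberg adjustment over 8904 genes. The libraries differ in condition and no condition is repeated, so a p-value speaks to recurrence over these libraries and not to conditions. All 34 sums entered 1 fit, so each p-value rests on a spread shared by the 5 gates and not on that contrast alone. Bcl2 in Foxp3+ cells was lower than in the other CD4+ T cells in 5 of 5 libraries, by a log2 difference of -2.83 ± 0.32 (SE, adjusted p = 1.33e-07), a 7.13-fold difference. Against CD8+ T cells it was 16.3-fold lower in 5 of 5 libraries (log2 -4.02 ± 0.30, adjusted p = 3.25e-12). CD8+ T cells held 2.28 times the Bcl2 of CD4+ T cells without Foxp3 (log2 1.19 ± 0.20, adjusted p = 5.56e-05, higher in 6 of 6), whereas NK cells held 1.95 times that of CD8+ T cells (log2 -0.97 ± 0.16 for CD8+ T against NK, adjusted p = 1.54e-05, 8 of 8 libraries). No single library ended any of these calls when left out. In sums, fewer expressing cells and less RNA per cell cannot be told apart, and CPM is a share of all UMIs of the sum.

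Bcl2l11, the BH3-only partner of Bcl2, took the same order among lymphocytes. It had a lowest, median and highest level of 182, 289 and 449 CPM in NK cells and of 68.2, 132 and 197 in CD8+ T cells, and medians of 66.4 CPM in CD4+ T cells without Foxp3 and 32.6 in Foxp3+ cells. NK cells were 2.18-fold above CD8+ T cells (log2 -1.12 ± 0.16 for CD8+ T against NK, adjusted p = 1.22e-06) and CD8+ T cells 2.1-fold above CD4+ T cells (log2 1.07 ± 0.21, adjusted p = 0.000295). Foxp3+ cells were 4.003-fold below CD8+ T cells (log2 -2.001 ± 0.25, adjusted p = 1.24e-07). Against the other CD4+ T cells their difference of -0.93 ± 0.28 passed (adjusted p = 0.0206) but not without the untransduced day-5 library or without PD1d/IL-2v/IL-33 day 26, where the adjusted p was at most 0.18. Myeloid cells, which had little Bcl2, differed from CD8+ T cells in Bcl2l11 by less than the spread, at a median of 125 CPM (log2 -0.05 ± 0.17, adjusted p = 0.821).

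Read as a pair, Bcl2 made up 63.1% of the UMIs of Bcl2 and Bcl2l11 together in CD8+ T cells (95% Clopper-Pearson interval 62.2 to 63.9), 60.7% in CD4+ T cells without Foxp3 and 55.3% in NK cells. In Foxp3+ cells it was 30.2% (23.3 to 37.9) and in myeloid cells 18.1%. Over the pooled UMIs Bcl2 thus held most of the pair in 3 gates and the smaller share in the other 2. Single libraries departed from this in NK cells, at 49.2% in PD1d/IL-33 (44.2 to 54.3) and 46.9% in PD1d/IL-2v/IL-33 day 12 (44.6 to 49.2), and in CD4+ T cells of untransduced day 5, at 43.9% (33.9 to 54.3). Intervals on counts here and below cover counting error only.

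Bcl2a1b and Bcl2a1d ran the other way. In NK cells Bcl2a1b had a lowest, median and highest level of 10.1, 26.2 and 49.0 CPM, against 82.8, 133 and 218 in CD8+ T cells. Its medians were 217 CPM in CD4+ T cells without Foxp3, 159 in Foxp3+ cells and 255 in myeloid cells. CD8+ T cells exceeded NK cells 5.69-fold in Bcl2a1b (log2 2.51 ± 0.25, adjusted p = 1.52e-09) and 6.39-fold in Bcl2a1d (log2 2.68 ± 0.23, adjusted p = 6.6e-11), each in 8 of 8 libraries with no overlap. CD4+ T cells exceeded NK cells 9.87-fold and 12.9-fold (adjusted p = 3.29e-11 and 3.64e-13), the largest member differences tested between lymphocyte gates apart from that of Bcl2 between Foxp3+ and CD8+ T cells.

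CD4+ T cells were also above CD8+ T cells, Bcl2a1d by 2.02-fold (log2 -1.01 ± 0.21 for CD8+ against CD4+, adjusted p = 0.000709) and Bcl2a1b by 1.73-fold (-0.79 ± 0.24, adjusted p = 0.0152). The second call rested on PD1d/IL-33, where CD4+ T cells reached 532 CPM of Bcl2a1b, and its adjusted p was 0.0597 without that library. Within CD4+ T cells the copies parted: Bcl2a1d was 2.77-fold lower in Foxp3+ cells (-1.47 ± 0.27, adjusted p = 0.00021, lower in 5 of 5), whereas Bcl2a1b differed by -0.57 ± 0.28 (adjusted p = 0.191). Whether the 2 copies differ from each other in that contrast was not tested. Bcl2a1b held 65.5% of the UMIs of both copies in Foxp3+ cells and between 53.3% and 57.1% in the other 4 gates.

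Mcl1 marked myeloid cells. Its lowest, median and highest levels were 417, 503 and 846 CPM there and 80.3, 97.7 and 190 CPM in CD8+ T cells, with no overlap. The difference was 5.66-fold (log2 2.50 ± 0.12, adjusted p = 1.99e-18, higher in 7 of 7 libraries). Among the lymphocyte gates its medians lay between 97.7 and 136 CPM and no contrast passed, with log2 differences from -0.29 ± 0.16 (Foxp3+ against other CD4+ T cells, adjusted p = 0.239) to 0.18 ± 0.14 (CD4+ T against NK, adjusted p = 0.397). Myeloid markers together stood at a median of 366 CPM in CD8+ T cells and 6408 in myeloid cells. Of these, Cst3, Ctss and Ccr2 had medians of 170, 114 and 96.4 CPM in CD8+ T cells, against 3190, 1701 and 396 in myeloid cells. C1qa, Apoe and Csf3r had medians of 0.14, 1.93 and 0 CPM, against 223, 477 and 67.8. The part of free myeloid RNA in lymphoid Mcl1 was not tested.

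Bcl2l1, which encodes BCL-XL, was the one pro-survival member with its highest median in Foxp3+ cells. The 5 libraries gave 60.4 CPM (untransduced, day 5), 56.8 (PD1d/IL-2v), and 108, 180 and 71.5 (PD1d/IL-2v/IL-33, days 5, 12 and 26), each above the same library's CD8+ T cells. The difference from CD8+ T cells was 1.92-fold (log2 0.94 ± 0.26, adjusted p = 0.00744), but only 0.60 (adjusted p = 0.193) when sums of at least 50 cells were required. Against the other CD4+ T cells it was 0.43 ± 0.30 (adjusted p = 0.386). CD4+ T cells without Foxp3 exceeded NK cells (1.11 ± 0.28, adjusted p = 0.00276, 0.0563 without PD1d/IL-2v/IL-33 day 5). CD8+ T cells exceeded NK cells in 5 of 8 libraries only, with a call (0.59 ± 0.23, adjusted p = 0.0417) that was lost without any of 5 libraries.

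Both effectors had their highest median in myeloid cells and their lowest in NK cells. Bax had medians between 138 CPM (NK) and 234 CPM (myeloid), and Bak1 between 58.3 (NK) and 127 (myeloid). Myeloid cells exceeded CD8+ T cells 2.23-fold in Bak1 (log2 1.16 ± 0.12, adjusted p = 1.52e-10, 7 of 7 libraries without overlap) and 1.37-fold in Bax (0.46 ± 0.10, adjusted p = 0.000185). CD8+ T cells exceeded NK cells 1.52-fold in Bax in 8 of 8 libraries (0.60 ± 0.10, adjusted p = 1.55e-05). The Bax difference between CD8+ and CD4+ T cells (0.33 ± 0.11, adjusted p = 0.0328) was lost without any of 4 libraries and, at 0.20 with an adjusted p of 0.229, without scaling factors. Bak1 passed in no contrast between lymphocyte gates.

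Pmaip1 (NOXA), whose product binds MCL1 and A1, was lowest in NK cells. There it had a median of 7.07 CPM and a highest of 22.4, and the untransduced day-12 library had no UMI, where 3 counts would be 13.4 CPM. CD8+ T cells had 18.2 to 51.4 CPM, CD4+ T cells without Foxp3 a median of 77.1, Foxp3+ cells 80.4 and myeloid cells 192. CD8+ T cells exceeded NK cells 5.41-fold (log2 2.44 ± 0.22, adjusted p = 1.89e-10, 8 of 8) and were 5.29-fold below myeloid cells (2.40 ± 0.16, adjusted p = 1.72e-14, 7 of 7). They were 1.7-fold below CD4+ T cells without Foxp3 in 6 of 6 libraries (-0.77 ± 0.20, adjusted p = 0.00502). Foxp3+ cells exceeded CD8+ T cells (0.81 ± 0.21, adjusted p = 0.00371), but not without PD1d/IL-2v (0.55, adjusted p = 0.113). Bbc3 (PUMA) was sparse, with medians from 10.9 to 22.9 CPM, and passed only between CD4+ T and NK cells (-0.79 ± 0.28, adjusted p = 0.0354), a call lost without any of 3 libraries.

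**Figure D2:**
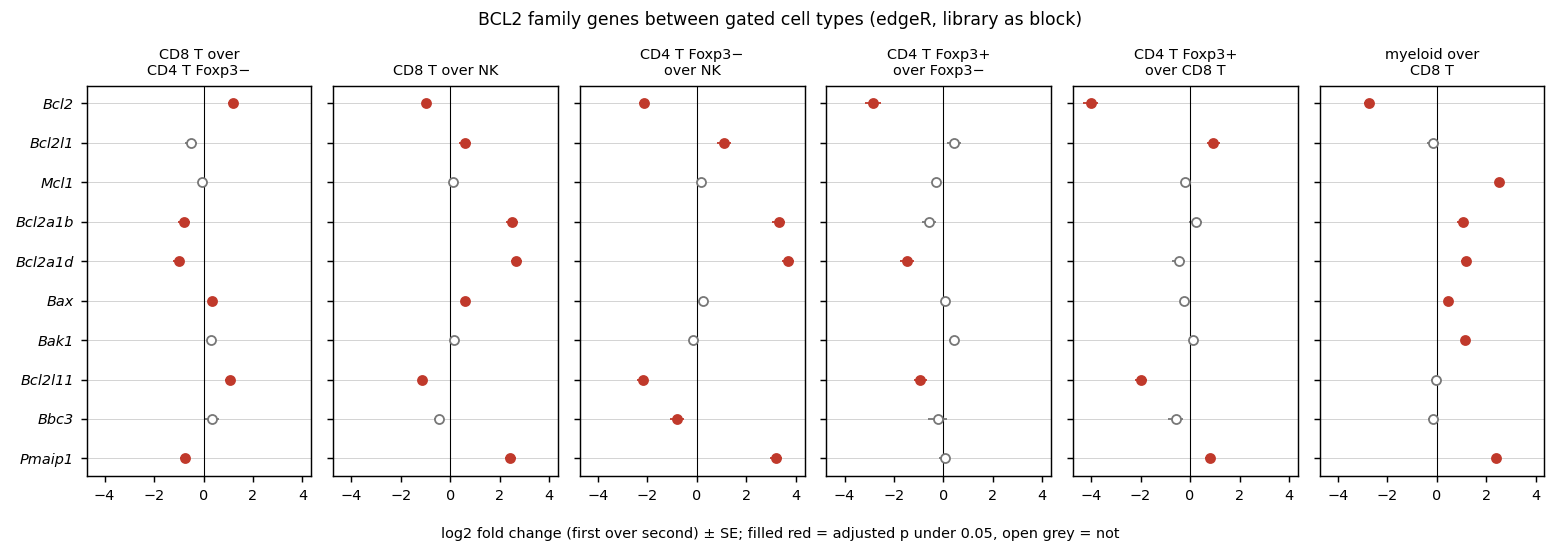
Log2 difference with its standard error for each of the 10 genes in 6 contrasts between gated cell types, filled where the adjusted p was under 0.05. Bcl2 and Bcl2l11 lie on one side and Bcl2a1b, Bcl2a1d and Pmaip1 on the other in the contrasts of T cells with NK cells.

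By count, 6 of 10 members passed between CD8+ T cells and CD4+ T cells without Foxp3, 3 in each direction, against 20.7% of all genes tested. Between CD8+ T and NK cells 7 passed (5 higher in CD8+ T, 2 lower; background 37.5%), and between CD4+ T and NK cells 7 (4 higher, 3 lower; 26.4%). In Foxp3+ cells 3 members were lower than in other CD4+ T cells and none higher (15.3%), and 2 were higher and 2 lower than in CD8+ T cells (26.6%). Between myeloid and CD8+ T cells 7 passed, 6 of them higher in myeloid cells, which is close to the background of 71.8%. Every contrast but that within CD4+ T cells had members called in both directions. Leaving out the library scaling factors moved the share of genes called higher from 54.3% to 31.6% between CD8+ and CD4+ T cells, from 55.3% to 44.5% between CD8+ T and NK cells and from 47.7% to 69.7% between Foxp3+ and CD8+ T cells, and reversed no member.

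Of 18 other genes of mitochondrial apoptosis 11 could be tested. CD8+ T cells were above CD4+ T cells without Foxp3 in 1 of them (Bid, a BH3-only gene, log2 0.74 ± 0.23) and below in 3 (Bcl2a1c at -1.13 ± 0.28 and the caspase-9 adaptor Apaf1 at -0.88 ± 0.21 among them), with adjusted p between 0.0031 and 0.0201 for those named. CD8+ T cells had 2 higher and 2 lower than NK cells, including Bcl2a1c at 2.69 ± 0.34 and Bid at -1.10 ± 0.14. CD4+ T cells without Foxp3 had 5 higher and 1 lower than NK cells, the lower one being Bid at -1.83 ± 0.22. In these contrasts Bid stood with Bcl2 and Bcl2l11 on the NK side and the Bcl2a1 copies on the T-cell side.

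Foxp3+ cells were above the other CD4+ T cells in 2 of the 11 and below in none: Bid at 1.09 ± 0.28 and Birc2, an inhibitor of apoptosis protein, at 0.91 ± 0.15 (adjusted p between 2.88e-05 and 0.00592). Against CD8+ T cells they were above in 2 and below in none, Birc2 at 1.42 ± 0.13 and Apaf1 at 1.13 ± 0.23. Myeloid cells were above CD8+ T cells in 9 of 11 and below in 1. Bcl2a1a, the A1 copy with the highest difference, was at 5.62 ± 0.28, and Cflar, which blocks caspase-8, at 1.67 ± 0.18. Median differences over the 11 were -0.21, 0.09, 0.39, 0.16, 0.26 and 0.94 in the 6 contrasts as ordered above, beside medians over all genes of 0.02, 0.01, -0.02, -0.01, -0.05 and -0.11.

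Of 9 NF-kB target genes tested, CD4+ T cells without Foxp3 were above CD8+ T cells in 6 and above NK cells in 6, with none the other way, and the median difference of CD8+ from CD4+ T cells was -0.79. Myeloid cells were above CD8+ T cells in 8 of 9. NK cells, the lowest in Bcl2a1b and Bcl2a1d, were above CD8+ T cells in 2 of the 9 and below in none. Foxp3+ cells were above CD8+ T cells in 4 of the 9 and below in none (median 0.52), and below the other CD4+ T cells in 1. The list and the Bcl2a1 copies thus had the same direction in the contrasts of CD4+ T cells with CD8+ T and NK cells and of myeloid with CD8+ T cells. Between CD8+ T and NK cells 22.2% of the list passed beside 37.5% of all genes, with a median of -0.16, so it showed no clear direction there. Between Foxp3+ and CD8+ T cells neither Bcl2a1b (0.23 ± 0.26) nor Bcl2a1d (-0.46 ± 0.26) passed (edgeR, adjusted p = 0.586 and 0.204). Over all genes, 20.7% passed between CD8+ and CD4+ T cells, 26.4% between CD4+ T and NK cells and 15.3% within CD4+ T cells. The share was 26.6% between Foxp3+ and CD8+ T cells and 71.8% between myeloid and CD8+ T cells. Of 9 p53 target genes CD8+ T cells had 1 higher and 1 lower than CD4+ T cells, and 2 higher and 1 lower than NK cells. CD4+ T cells had 4 higher and 1 lower than NK cells. Foxp3+ cells had 1 higher and none lower than other CD4+ T cells, and 4 higher and 1 lower than CD8+ T cells. Myeloid cells had 4 higher and 5 lower than CD8+ T cells.

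Within CD8+ T cells the CPM of Bcl2 was lower in cycling than in non-cycling cells. Cycling cells had UMIs of at least 2 of 5 mitotic genes, and non-cycling cells of none. Cycling and non-cycling sums gave 76.0 and 292 CPM in the untransduced day-5 library, 112 and 353 in PD1d/IL-2v, and 103 and 188 in PD1d/IL-33. In PD1d/IL-2v/IL-33 they gave 153 and 257 on day 5, 223 and 284 on day 12, and 100 and 190 on day 26. The cycling sum was lower in 6 of 6 libraries, with log2 ratios of CPM between -1.94 and -0.35, the smallest step being PD1d/IL-2v/IL-33 day 12. The fitted difference was -1.14 ± 0.15 (edgeR with the library as block, adjusted p = 7.57e-06). This call held when every cell was thinned to 2000 UMIs, with the classes redrawn from the thinned counts. It also held without the library block. Cycling cells were deeper, with a median of 13826 UMIs against 5426. CPM is a share of all UMIs, and whether UMIs of Bcl2 or other members per cell differed was not tested.

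Mcl1 (-0.60 ± 0.10, adjusted p = 7.37e-05), Bcl2l11 (-0.72 ± 0.12, adjusted p = 0.000141) and Bbc3 (-0.78 ± 0.18, adjusted p = 0.00196) were also lower in cycling cells in 6 of 6 libraries. In Bcl2l11 the steps ran from -1.58 in PD1d/IL-33 (14 UMIs in cycling cells) to -0.14 in PD1d/IL-2v/IL-33 day 26. After thinning, Mcl1 was at -0.30 (edgeR, adjusted p = 0.312) and Bcl2l11 at -0.52 (adjusted p = 0.053), so neither call held. Thinning also changed the classes and left 4380 genes tested instead of 8730, which cannot be told apart from depth. Without the library block Mcl1, Bcl2l11 and Bbc3 had adjusted p between 0.0555 and 0.184. With the cell filter that the study states for its second experiment, Mcl1 (-0.16, edgeR adjusted p = 0.544) and Bbc3 (-0.35, adjusted p = 0.665) fell short. In all, 4 of 10 members passed and all were lower. Over all 8730 genes tested, 43.8% passed, 1824 higher and 2000 lower, so the share of members called is close to the background. Of 10 other apoptosis genes tested 3 were higher in cycling cells, among them Cycs, the gene for cytochrome c (0.51 ± 0.11), and Cflar was lower (-0.70 ± 0.11), whereas DESeq2 called 2 in all. NF-kB targets were lower in 5 of 9 and higher in 1, and p53 targets higher in 3 of 10 and lower in 2.

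**Figure D3:**
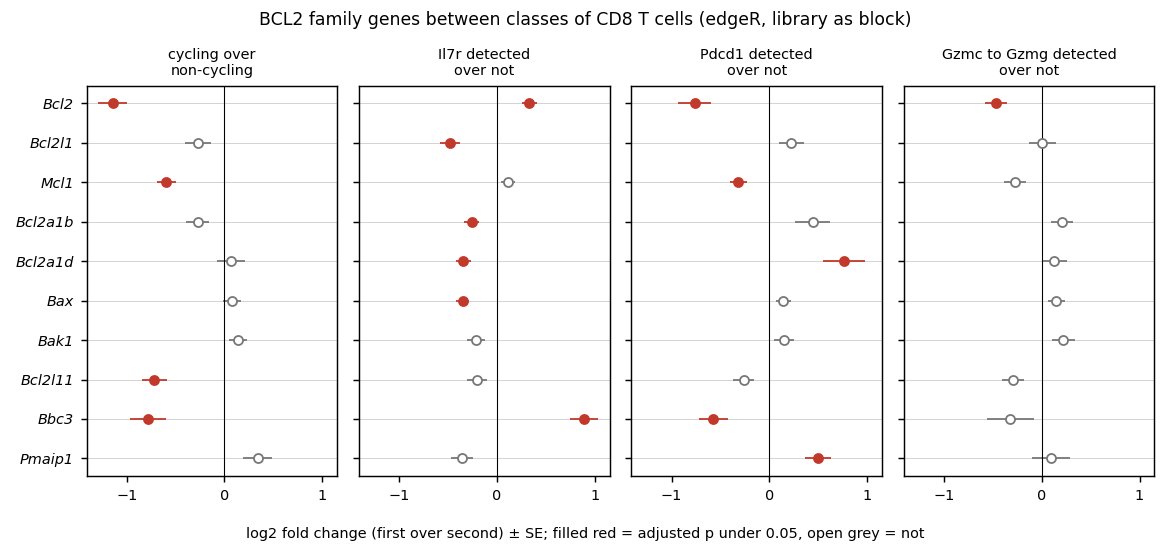
Log2 difference with its standard error of the 10 genes in 4 splits of CD8+ T cells (cycling, Il7r, Pdcd1 and Gzmc to Gzmg), filled where the adjusted p was under 0.05. Bcl2 is lower in cycling (-1.14), Pdcd1-positive (-0.76) and Gzmc to Gzmg-positive cells (-0.47) and higher in Il7r-positive cells (0.33).

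Cells with a UMI of Pdcd1, the gene for PD-1, also had a lower CPM of Bcl2. Pdcd1-positive and negative sums gave 113 and 383 CPM in untransduced day 5, 159 and 366 in PD1d/IL-2v, and 111 and 298 in non-treated tumors. They gave 152 and 168 in PD1d/IL-33, and 191 and 240, 246 and 284, and 146 and 202 in PD1d/IL-2v/IL-33 on days 5, 12 and 26. Positive cells were lower in 7 of 7 libraries, with log2 ratios of CPM between -1.76 and -1.20 in the 3 libraries without IL-33-secreting cells and between -0.47 and -0.14 in the 4 with them. That split of the libraries was read off the values and was not tested. The fitted difference was -0.76 ± 0.17 (edgeR, adjusted p = 0.00554), and after thinning -0.47 (adjusted p = 0.0674). Pdcd1-positive cells had a median of 7019.5 UMIs against 5425.

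Bcl2a1d moved the opposite way across Pdcd1. It was higher in Pdcd1-positive cells in 7 of 7 libraries, with log2 ratios of CPM of 2.19 in untransduced day 5, 1.91 in PD1d/IL-2v and 1.004 in non-treated tumors (9 UMIs in negative cells), and of 0.05 to 0.55 in the 4 IL-33 libraries. The fitted difference was 0.76 ± 0.22 (edgeR, adjusted p = 0.0196, 0.0878 without PD1d/IL-2v). Pmaip1 was higher as well (0.50 ± 0.13, adjusted p = 0.0145, 0.0632 without PD1d/IL-2v), whereas Bbc3 (-0.57 ± 0.15, adjusted p = 0.0138) and Mcl1 (-0.32 ± 0.09, adjusted p = 0.0203) were lower. The Bbc3 call was lost without PD1d/IL-2v (adjusted p = 0.0687) and the Mcl1 call without PD1d/IL-2v/IL-33 day 12 (adjusted p = 0.0662). After thinning to 2000 UMIs neither Pmaip1 (0.35, edgeR adjusted p = 0.365) nor Mcl1 (-0.19, adjusted p = 0.408) passed. With the cell filter that the study states for its second experiment, Mcl1, Bbc3 and Pmaip1 fell short (edgeR, adjusted p = 0.484, 0.151 and 0.0826). Without the library block none of the calls across Pdcd1 held (adjusted p between 0.0641 and 0.602). In all, 5 of 10 members passed, against 21.7% of 9030 genes. Of the 10 other apoptosis genes 2 were higher (Apaf1 at 0.56 ± 0.14 and Htra2 at 0.43 ± 0.12) and none lower, and DESeq2 called 1. NF-kB targets were higher in 1 of 9 and lower in 2, and p53 targets higher in 3 of 10 and lower in 1.

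Il7r encodes the IL-7 receptor chain that marks naive and memory T cells. The clearest member across it was Bbc3, with Il7r-positive and negative sums of 38.6 and 13.2 CPM in untransduced day 5, 34.5 and 19.8 in PD1d/IL-2v, 23.6 and 12.7 in PD1d/IL-33 (5 and 25 UMIs), and 13.7 and 11.7, 20.4 and 15.3, and 27.3 and 14.7 in PD1d/IL-2v/IL-33 on days 5, 12 and 26. Il7r-positive cells were higher in 6 of 6 libraries (0.89 ± 0.14, adjusted p = 0.000554), and this call held after thinning to 2000 UMIs. Bax was lower in 6 of 6 libraries (-0.35 ± 0.07, adjusted p = 0.00247), and after thinning -0.29 (adjusted p = 0.259).

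Bcl2 itself was higher in Il7r-positive cells by only 0.33 ± 0.08 (edgeR, adjusted p = 0.0116), with log2 ratios of CPM of 0.59, 0.44 and 0.42 in untransduced day 5, PD1d/IL-2v and PD1d/IL-2v/IL-33 day 26 and between -0.04 and 0.07 in the other 3. Leaving out any of the first 3 ended the call, as did thinning to 2000 UMIs (0.34, edgeR adjusted p = 0.0699). Bcl2l1 (-0.48 ± 0.10), Bcl2a1d (-0.34 ± 0.08) and Bcl2a1b (-0.26 ± 0.08) were lower, and each of these calls was lost without PD1d/IL-2v, without PD1d/IL-2v/IL-33 day 26 and after thinning. None of the 6 calls held without the library block (adjusted p of at least 0.347). In all, 6 of 10 members passed, against 6.63% of 9040 genes. Of the 10 other apoptosis genes none passed by edgeR or DESeq2, and 2 had an unadjusted p under 0.05 in edgeR. NF-kB targets were higher in 2 of 9 and lower in none, and p53 targets lower in 3 of 10 and higher in none.

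Granzymes C to G are cytotoxic proteases encoded by neighbouring genes, and 387 of 5044 CD8+ T cells had a UMI of at least 1 of them, with a median depth of 11609 UMIs against 5839 in the rest. The CPM of Bcl2 was lower in these cells in 5 of 5 libraries, whereas Bcl2 UMIs per cell were not tested. Positive and negative sums gave 106 and 186 CPM in untransduced day 5, 176 and 297 in PD1d/IL-2v, and 152 and 219, 243 and 272, and 132 and 171 in PD1d/IL-2v/IL-33 on days 5, 12 and 26. The fitted difference was -0.47 ± 0.11 (edgeR, adjusted p = 0.0132). It was lost after thinning (-0.55, adjusted p = 0.228), without any of 3 libraries (adjusted p up to 0.0772), without the library block (adjusted p = 0.574) and with sums of at least 50 cells (adjusted p = 0.306). Bcl2 was the only member past the threshold, against 8.81% of 9593 genes, and none of 11 other apoptosis genes passed by edgeR or DESeq2 (1 at an unadjusted p under 0.05 in edgeR). NF-kB targets were lower in 1 of 9, and p53 targets higher in 2 of 10 and lower in 1.

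Between conditions each side is 1 library, so these comparisons carry no p-value and describe the libraries, with an exact 95% interval on counts. A gene counted as past 2-fold where the interval also excluded 1. On day 5, the combined product was past 2-fold in 3 of 10 members against untransduced OT1 ACT in CD8+ T cells, beside 11.7% of all genes with enough UMIs. Bcl2l1 stood at 70.8 against 25.4 CPM (log2 1.48, interval 1.17 to 1.80), Mcl1 at 190 against 80.3 (1.24, 1.07 to 1.42) and Bbc3 at 12.1 against 26.8 (-1.15, -1.64 to -0.68). BCL-XL and MCL1 are pro-survival and PUMA is pro-apoptotic, but the other members did not all follow this direction. Combined and untransduced sums of 4377548 and 4770552 UMIs held 864 and 690 UMIs of the pro-apoptotic Bcl2l11. Of pro-survival genes they held 926 and 839 UMIs of Bcl2, 471 and 677 of Bcl2a1b and 354 and 657 of Bcl2a1d. The median log2 ratio over the 10 members was 0.09. The libraries compared carried different set identifiers, codes deposited with the libraries whose meaning the labels do not state. Treatment and set cannot be told apart here. The Mcl1 ratio was 0.95 when cells were weighted equally and 1.03 in non-cycling cells only.

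On day 12 none of the 10 members was past 2-fold in CD8+ T cells, whether PD1d/IL-2v/IL-33 was set against PD1d/IL-2v (background 10.7%), PD1d/IL-33 (6.51%) or untransduced OT1 (9.78%), or PD1d/IL-33 against PD1d/IL-2v (11.2%). Nor was any between days 5 and 12 of PD1d/IL-2v/IL-33 (3.99%). Smaller ratios exceeded counting error. PD1d/IL-33 and PD1d/IL-2v shared a set identifier. The combined product on day 12 carried a different one, which also differed from that of its day 5. Product and set cannot be told apart in its comparisons with PD1d/IL-33 and PD1d/IL-2v, nor day and set between days 5 and 12. PD1d/IL-33 against PD1d/IL-2v gave Bcl2 160 against 277 CPM (log2 -0.79, -0.96 to -0.62) and Bcl2l11 86.2 against 131 (-0.60, -0.84 to -0.37). Mcl1 stood at 153 against 81.0 (0.91, 0.70 to 1.12) and Bcl2a1b at 146 against 82.8 (0.82, 0.60 to 1.02). Bcl2 and Bcl2l11 were thus lower, and Mcl1 and Bcl2a1b higher, in PD1d/IL-33 than in PD1d/IL-2v. The cell filter that the study states for its second experiment has lower minimum and lower maximum limits on genes and UMIs. With it, 4 members passed 2-fold in this comparison (Bcl2 at -1.16, Bcl2a1b at 1.32, Bcl2a1d and Pmaip1). For the combined product, 4 passed against PD1d/IL-2v (Mcl1 at 1.02 and Bcl2a1b at 1.34 among them). Against PD1d/IL-33 1 passed (Bcl2l11 at 1.20), and against untransduced OT1 2 passed (Bcl2l1 and Bcl2l11).

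CD8+ T cells of the combined product on day 12 resembled PD1d/IL-2v in Bcl2, at 260 CPM (log2 -0.09, -0.19 to 0.01). They resembled PD1d/IL-33 in Mcl1, at 143 CPM (-0.09, -0.27 to 0.09). The Bcl2 ratio to PD1d/IL-2v was -0.42 with the cell filter of the second experiment and -0.31 in non-cycling cells. Bcl2 was 0.70 above PD1d/IL-33 (0.54 to 0.87), and Mcl1 was 0.82 above PD1d/IL-2v (0.66 to 0.99). Bcl2l11 was above both, by 0.97 (0.74 to 1.20) against PD1d/IL-33 and 0.36 (0.23 to 0.50) against PD1d/IL-2v. All of these ratios compare libraries of different set identifiers, so product and set cannot be told apart. Against untransduced day 12, of the same set identifier but with 42 CD8+ T cells, Bcl2 was at 0.58 (0.16 to 1.02) and Mcl1 at 0.40 (-0.13 to 0.97), an interval that reaches 0. Median log2 ratios over all genes in the comparisons of CD8+ T cells ran from -0.19 to 0.20.

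**Figure D4:**
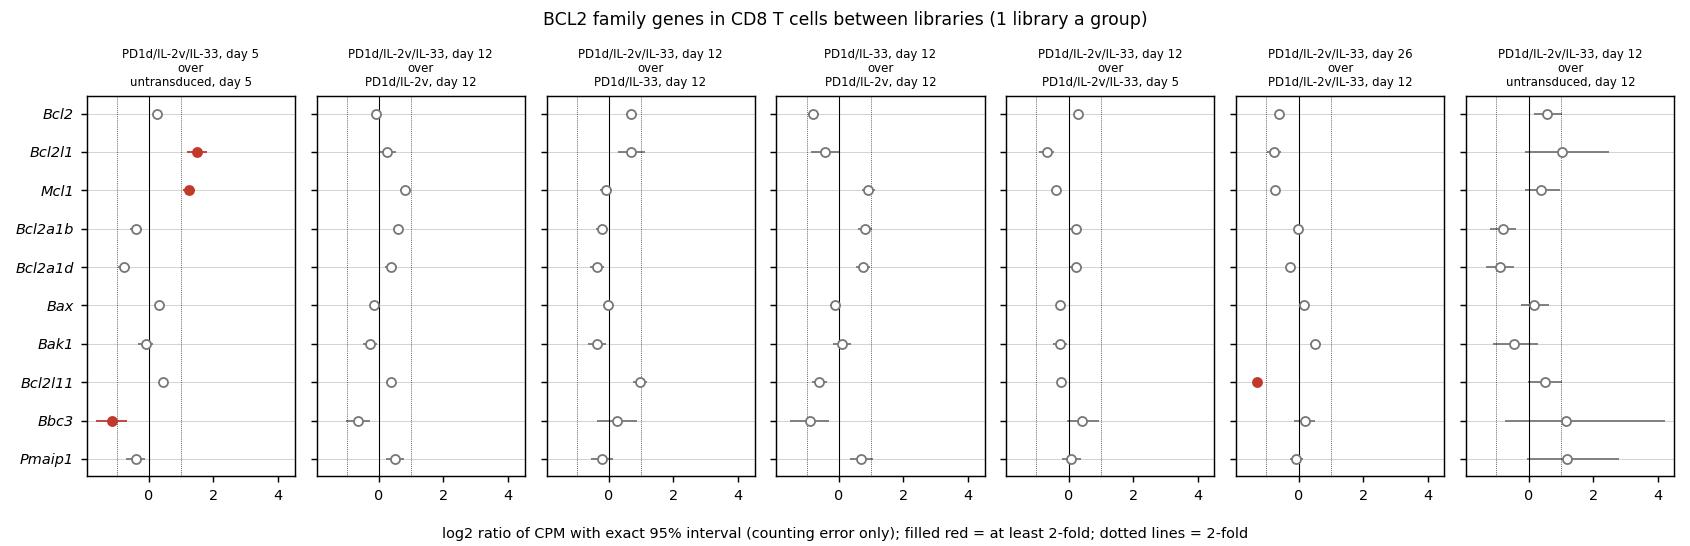
Log2 ratio of CPM with its exact 95% interval for the 10 genes in 7 comparisons of CD8+ T-cell sums, with dotted lines at 2-fold. Bcl2l1 (1.48), Mcl1 (1.24) and Bbc3 (-1.15) pass 2-fold on day 5, and Bcl2l11 (-1.30) between days 26 and 12.

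On day 26 of the combined product, Bcl2l11 in CD8+ T cells stood at 68.2 CPM against 168 on day 12 (log2 -1.30, -1.43 to -1.18), the lowest of the 8 libraries and the only member past 2-fold (background 14.7%). With the cell filter of the second experiment Bcl2l11 was at -1.68 and Mcl1 passed as well, at -1.03. Bcl2 (-0.61, -0.70 to -0.52), Bcl2l1 (-0.77, -0.99 to -0.54) and Mcl1 (-0.73, -0.85 to -0.61) were lower too. Bcl2a1b (-0.03, -0.15 to 0.09), Bbc3 (0.18, -0.14 to 0.51) and Pmaip1 (-0.07, -0.28 to 0.14) were not separated. Bcl2, Bcl2l1, Mcl1 and Bcl2l11 were therefore all lower on day 26, whereas the pro-survival Bcl2a1b was not separated. Bcl2a1d held 1160 UMIs on day 26 and 645 on day 12, in sums of 14832891 and 6896799 UMIs. Bcl2 held 71.4% of the UMIs of Bcl2 and Bcl2l11 on day 26, the highest of the 8 libraries, and 60.7% on day 12. The lowest was PD1d/IL-2v/IL-33 day 5 at 51.7%. Days 12 and 26 carried different set identifiers, and day and set cannot be told apart.

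Mcl1 was highest in the same 3 libraries in CD8+ T, NK and myeloid cells. This grouping was read off the values and was not tested. In CD8+ T cells the 3 libraries with IL-33-secreting cells on days 5 and 12 stood highest. They had 190 CPM (PD1d/IL-2v/IL-33 day 5), 153 (PD1d/IL-33) and 143 (PD1d/IL-2v/IL-33 day 12), above 109 in untransduced day 12 and 80.3 to 86.5 in the other 4. In NK cells the same 3 stood at 171, 152 and 131 CPM. Non-treated, with only 71 NK cells, was close to the lowest of them at 128, and the other 4 stood at 74.1 to 89.0. In myeloid cells they stood at 762, 704 and 846 CPM against 417 to 503 in the other 4. The day-26 library of the combined product lay with the others in these 3 gates, at 86.5, 85.0 and 462 CPM. In CD4+ T cells without Foxp3 it did not: day 26 stood at 146 CPM, above day 12 of the same product at 127, with 181 in PD1d/IL-2v/IL-33 day 5, 164 in PD1d/IL-33, 97.6 in PD1d/IL-2v and 95.7 in untransduced day 5. In Foxp3+ cells days 12 and 26 both stood at 105 CPM, against 209 in PD1d/IL-2v/IL-33 day 5, 76.8 in PD1d/IL-2v and 71.4 in untransduced day 5.

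**Figure D5:**
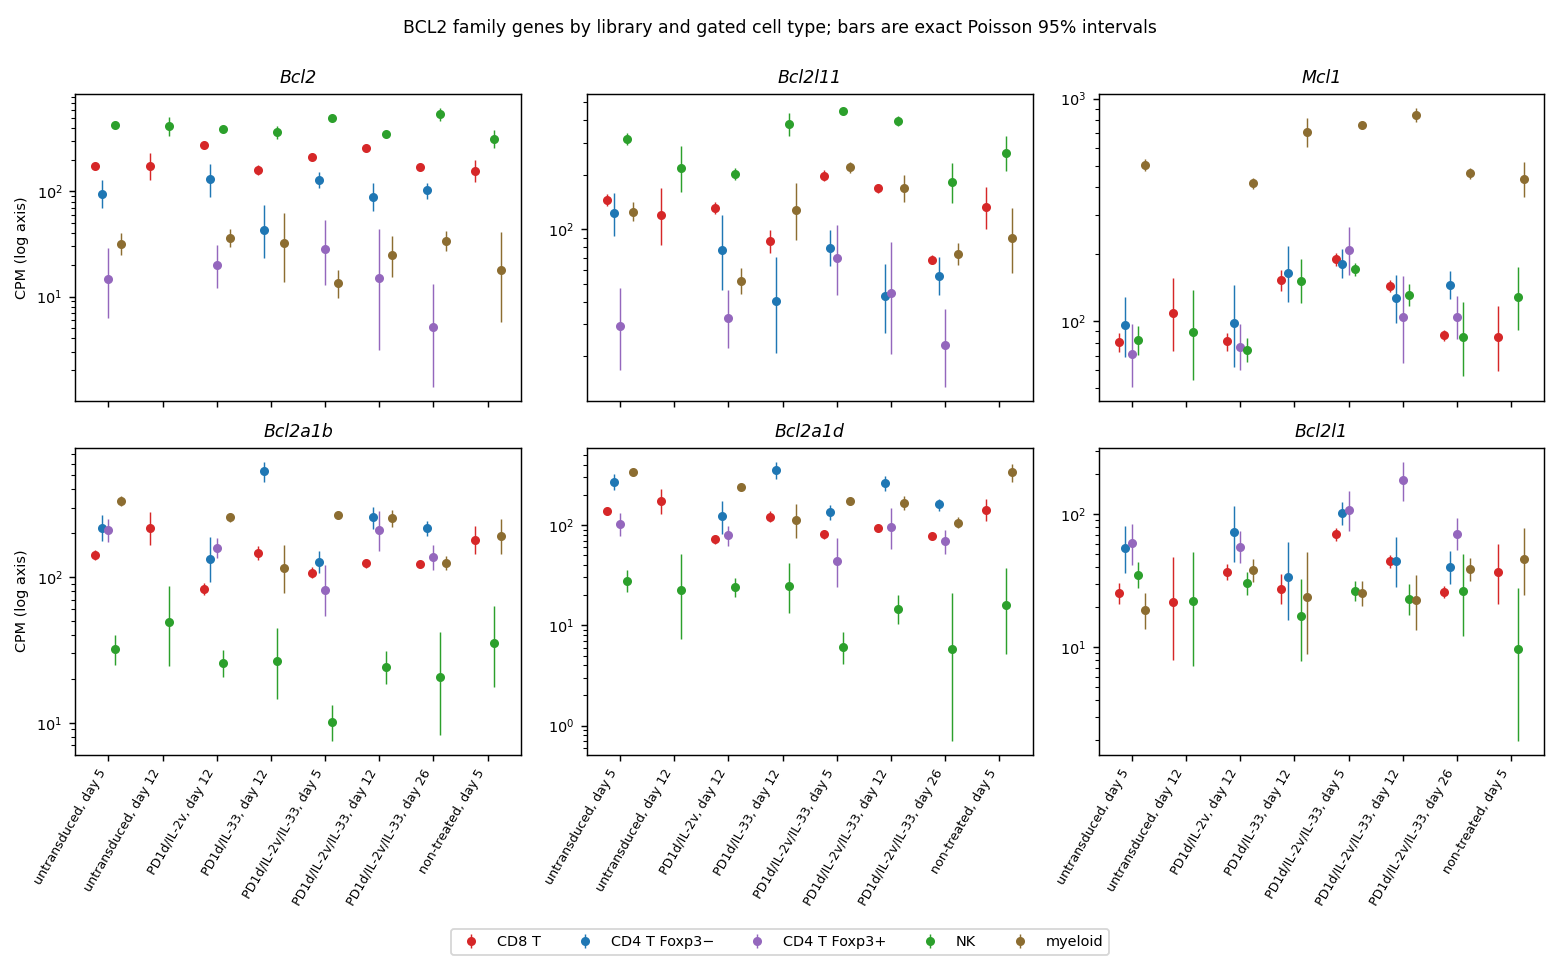
Level (CPM, log axis) with its exact Poisson interval of 6 BCL2 family genes in each library and gated cell type. Mcl1 is highest in PD1d/IL-33 and in PD1d/IL-2v/IL-33 on days 5 and 12 in CD8+ T cells (143 to 190), NK cells (131 to 171) and myeloid cells (704 to 846). In NK cells the non-treated library lies close to the lowest of these.

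Bcl2l11 was likewise highest in the 3 libraries with IL-33-secreting cells on days 5 and 12 in NK cells. It was not clearly so in myeloid cells, and not so in CD8+ T cells. In NK cells it stood at 449, 379 and 397 CPM in PD1d/IL-2v/IL-33 day 5, PD1d/IL-33 and PD1d/IL-2v/IL-33 day 12, and at 182 to 315 in the other 5. In myeloid cells it stood at 219, 128 (32 UMIs) and 168 CPM in the same 3, against 52.1 to 89.1 in PD1d/IL-2v, non-treated and day 26. Untransduced day 5 stood at 125 CPM there, so PD1d/IL-33 was not set apart from it. In CD8+ T cells PD1d/IL-33 had 86.2 CPM, the second lowest. PD1d/IL-2v/IL-33 day 12 against PD1d/IL-2v gave a Bcl2l11 ratio of 0.97 (0.83 to 1.11) in NK and 1.69 (1.35 to 2.03) in myeloid cells, and day 26 against day 12 gave -1.13 (-1.52 to -0.76) and -1.20 (-1.52 to -0.87).

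Set identifiers and early-response genes moved with these libraries in part. Within the set of PD1d/IL-33 and PD1d/IL-2v, Mcl1 was higher in PD1d/IL-33 by 0.91 in CD8+ T, 1.04 in NK and 0.76 in myeloid cells. Within the set of untransduced and combined day 12, it was higher in the combined library by 0.40 (-0.13 to 0.97) in CD8+ T and 0.56 (-0.09 to 1.29) in NK cells. The summed level of 6 immediate-early genes, which rise during tissue dissociation, was 823 to 1185 CPM in CD8+ T cells of the 3 IL-33 libraries of days 5 and 12 and 1205 to 3262 CPM in the other 5. It was 1202 to 1807 against 2222 to 6364 in NK cells and 4202 to 5754 against 7993 to 13277 in myeloid cells. The 3 libraries with the most Mcl1 thus had the lowest sums, but the other libraries did not keep this order. Non-treated NK cells had the highest sum and more Mcl1 than the other libraries outside the 3. In CD8+ T cells the sums of the combined product on days 12 and 26 were close, at 1185 and 1205 CPM, whereas Mcl1 was lower on day 26. The part of these genes in Mcl1 was not tested. Myeloid marker sums in CD8+ T cells were 289 to 413 CPM in the 3 libraries and 341 to 513 CPM in the others.

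In the rarer gates, counts limited the comparisons. On day 5, Foxp3+ cells of PD1d/IL-2v/IL-33 (38 cells) against untransduced (75 cells) had Mcl1 at 209 against 71.4 CPM (log2 1.55, 0.96 to 2.16), Bcl2a1b at 82.2 against 210 (-1.36, -2.03 to -0.73) and Pmaip1 at -2.18 (-3.56 to -1.05, from 7 and 55 UMIs). On day 12 Bcl2l1 in Foxp3+ cells was 180 CPM in the combined library against 56.8 in PD1d/IL-2v (1.66, 1.01 to 2.30). In CD4+ T cells without Foxp3, Mcl1 on day 5 was 181 against 95.7 CPM (0.92, 0.44 to 1.44). In NK cells on day 5, Bcl2a1b was -1.66 (-2.20 to -1.13) and Bcl2a1d -2.20 (-2.86 to -1.56) in the combined library, from 53 and 32 UMIs. The higher Mcl1 level on day 5 relative to untransduced ACT was thus seen in all 5 gates, with 0.60 (0.50 to 0.70) in myeloid and 1.06 (0.83 to 1.29) in NK cells, all against the same untransduced library. That library carried a different set identifier from the combined one.

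Across the 34 sums of library and gate, the genes whose level was most like that of Bcl2 were Mctp2, Klrd1 and Pim2, with Pearson correlations of 0.94, 0.93 and 0.93 on log2(CPM + 10) among 6632 genes. Klrd1 encodes an NK and effector T-cell receptor chain (CD94) and Pim2 a survival kinase. For Mcl1 they were Plekho1, Fn1 and Rrbp1 (0.94, 0.93 and 0.92), for Bcl2l11 Sft2d2, Sepn1 and Gas7 (0.84, 0.83 and 0.83), and for Bcl2a1b its copy Bcl2a1d (0.95), Slfn1 and Ifi27l2a. Bcl2l11 correlated with Bcl2 at 0.71 and Pmaip1 with Bcl2 at -0.82. The sums share libraries and fall into 5 cell types, so these values describe the order of cell types for the most part.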

How the data were processed

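CD45+ tumor-infiltrating leukocytes were profiled as 8 libraries of 10x 5′ gene expression. The deposited counts are UMIs per gene and barcode, which the authors made with Cell Ranger 2.2.0 on GRCm38 per the processing notes and merged into 1 table. Libraries were read from the barcode suffix in the order of the deposited aggregation table. Cells with 500 to 6000 genes, 2000 to 40000 UMIs, 5 to 60% ribosomal and under 10% mitochondrial UMIs were kept. No doublet caller was run, and cells over 20000 UMIs were left out as an alternative. UMIs were summed per library and gate for at least 20 cells, and tested with edgeR 4.0.16 (TMM factors, filterByExpr, quasi-likelihood F test, library as block, Benjamini-Hochberg over all genes, threshold 0.05) in R 4.3.3. The block pairs gates or classes of the same library, hence of the same mice. Between libraries, CPM ratios with exact conditional binomial 95% intervals were taken for genes whose UMIs in the pair summed to 50 or more. Standard errors are derived from the fold change and the F statistic. The 10 genes, the gene lists and the gates were chosen with earlier results of these data known, and the 6 immediate-early genes (Fos, Jun, Junb, Egr1, Atf3, Dusp1) after their values were seen. Values are named for the 10 genes throughout, for at most 4 apoptosis genes per comparison past the threshold with the largest fold, and for the 3 genes most like Bcl2, Mcl1, Bcl2l11 and Bcl2a1b. A few genes of the apoptosis list are not reported here and are in none of its counts. The tests were tried on simulated data. Promoters come from RefSeq on GRCm38.p6 (Biopython 1.88 for alignment). Alternatives used DESeq2 1.42.0, other scaling, filters, gates and depth. The cell filter stated for the second experiment kept 400 to 3000 genes, 500 to 12000 UMIs, under 50% ribosomal and under 5% mitochondrial UMIs.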

Additional observations from a re-analysis of the deposited data

Results flagged for a closer look

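Of 50 called differences of members between cell types or CD8+ T-cell classes, 4 had 1 library far from the rest of its group by Dixon's criterion, which chance meets in about 1 in 20 groups. These differences are on the log2(CPM + 10) scale, which shrinks those of sparse genes. Bax in myeloid against CD8+ T cells was 0.71 in non-treated tumors (68 and 63 UMIs) and 0.08 to 0.31 in the other 6 libraries. Mcl1 in cycling against non-cycling CD8+ T cells was -0.95 in untransduced day 5 (99 and 215 UMIs) and -0.50 to -0.29 elsewhere, and Bbc3 in the same contrast and library was -1.18 (26 and 86 UMIs, -1.69 with no CPM added) against -0.40 to -0.04. Bcl2a1d in Il7r-positive against negative cells was 0.18 in PD1d/IL-33 (29 and 235 UMIs) and -0.50 to -0.28 in the other 5, so that library alone went the other way. Untransduced day 5 therefore stood apart in both of the cycling results.

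Of 382 pairs of cell types compared, 3 had a member past 2-fold in opposite directions under the same comparison of libraries, each a comparison of 1 library with 1 in which the difference between cell types was not tested. Bcl2a1b in PD1d/IL-33 against PD1d/IL-2v was at 1.99 in CD4+ T cells without Foxp3 and at -1.15 in myeloid cells, and Bcl2a1d at 1.54 and -1.10. Bcl2a1b in PD1d/IL-2v/IL-33 day 12 against PD1d/IL-33 was at -1.05 in CD4+ T cells and 1.13 in myeloid cells. All 3 share the PD1d/IL-33 library, which held 65 such CD4+ T cells and 38 myeloid cells, with 159 and 29 Bcl2a1b UMIs.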

How the results depend on the processing

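Over 1518 alternative fits of the members between cell types and CD8+ T-cell classes, 1401 kept direction and side of the threshold, 89 fell short of it, 28 newly passed and 0 reversed a called direction, and 39 uncalled differences changed sign. Over 560 alternative library ratios 468 stayed within the interval on counts, 92 moved outside it and 0 reversed. Of 70 ratios, 35 moved outside with the cell filter that the study states for its second experiment and 25 in non-cycling cells only. With cells weighted equally 13 moved outside, with TMM factors 10, without cells over 20000 UMIs 6 and with strict gates 3. Without the replicate block 20 of 100 member results fell short, among them Mcl1, Bcl2l11 and Bbc3 in cycling cells (adjusted p = 0.184, 0.0967 and 0.0555) and every call of the Il7r, Pdcd1 and Gzmc to Gzmg splits. Counts of genes called without the block were 922 (1841 with it) for CD8+ T against CD4+ T, 2070 (3342) for CD8+ T against NK, 900 (1358) for Foxp3+ against other CD4+ T, 2039 (3824) for cycling, 2 (599) for Il7r, 306 (1963) for Pdcd1 and 15 (845) for Gzmc to Gzmg. That cell filter made 10 of 100 member results fall short and gave 797 for cycling, 597 for Pdcd1, 83 for Gzmc to Gzmg, and 311 (547) and 210 (354) genes past 2-fold for PD1d/IL-2v/IL-33 day 12 against PD1d/IL-33 and against day 5. Thinning to 2000 UMIs, which gave 38 of 40 member values, made 11 fall short and left 980, 316, 276 and 104 genes in the 4 splits. In all 4 the classes were redrawn from the thinned counts. For Gzmc to Gzmg, DESeq2 called 537 and sums of at least 50 cells 263. Adding 10 CPM left 282 (1019) past 2-fold on day 5, 194 (969), 146 (547) and 497 (765) for the combined product against PD1d/IL-2v, PD1d/IL-33 and untransduced on day 12, 243 (913) for PD1d/IL-33 against PD1d/IL-2v, 60 (354) for day 12 against 5 and 309 (1452) for day 26 against 12. A minimum of 10 UMIs gave 1529 on day 5, 1493 against PD1d/IL-2v, 906 against PD1d/IL-33 and 639 for day 12 against 5. Leaving out 1 library at a time gave 1353 to 1936 genes for CD8+ T against CD4+ T, 2731 to 3288 for CD8+ T against NK, 2001 to 2415 for CD4+ T against NK, 864 (without PD1d/IL-2v/IL-33 day 26) to 1413 for Foxp3+ against other CD4+ T, 1632 to 2396 for Foxp3+ against CD8+ T, 5894 to 6467 for myeloid cells, 3152 to 3662 for cycling, 301 (without day 26) to 590 for Il7r, 1226 (without PD1d/IL-2v) to 1954 for Pdcd1 and 522 (without day 12) to 665 for Gzmc to Gzmg. Without scaling factors the genes higher and lower went from 310 and 289 to 261 and 440 for Il7r and from 423 and 422 to 311 and 499 for Gzmc to Gzmg. TMM factors moved the genes past 2-fold on day 5 from 485 higher and 534 lower to 599 and 398, for the combined product on day 12 from 488 and 481 to 603 and 364 against PD1d/IL-2v, from 323 and 224 to 393 and 147 against PD1d/IL-33, from 355 and 410 to 497 and 279 against untransduced and from 175 and 179 to 237 and 101 against day 5, and for day 26 against day 12 from 877 and 575 to 639 and 718. The causes were not tested. Requiring 50 cells per sum made 4 of 100 member results fall short.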
